A study of Homo sapiens with 8 samples.

Results

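HSP90 and 8 of its co-chaperones were followed in heat-shocked human cells: the cytosolic chaperone genes HSP90AA1 and HSP90AB1, and AHSA1, STIP1, CDC37, PTGES3, FKBP4, FKBP5, CHORDC1 and ST13. The 10 genes were taken by their symbols from tables of read counts for 55075 genes, of which 32200 had a read in any library, and all 10 passed the filter on low counts that left 17471 genes for testing. The cells were HCT116, an established colon cancer line, either with FBXW7 knocked out (FBXW7 KO, here KO) or wild type (WT). The KO recovery group was heated to 42 °C for 1 h and then held at 37 °C for 2 h, and the KO heat shock group was taken at the end of the same heating. The WT recovery and WT heat shock groups had the same treatments. Each group had 2 libraries, all 4 groups had been heated, and unheated cells were not analysed here. FBXW7 picks the substrates of an SCF ubiquitin ligase, and HSF1, the factor that switches on heat shock genes, is among the proteins it is known to bind. The sources used here do not say whether the KO line is 1 clone or whether replicates were separate cultures, so each p-value rests on the spread among these libraries alone, and that spread may be technical.

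HSP90 is a dimeric ATPase that helps kinases, steroid receptors and other client proteins reach or keep an active fold. Clients often come from HSP70 through the adaptor STIP1, or, for kinases, with CDC37. AHSA1 speeds ATP hydrolysis, PTGES3 holds the closed dimer, and FKBP4 and FKBP5 are immunophilins that bind HSP90 in steroid receptor complexes. HSP90AA1 encodes the more inducible and HSP90AB1 the more constant cytosolic form, and many genes of the set are known targets of HSF1.

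After the heat was taken off, 4 co-chaperone transcripts moved in opposite directions in the 2 lines. In KO cells AHSA1, STIP1, CDC37 and FKBP4 rose during recovery, by 0.43 to 0.90 on the log2 scale, and FKBP5 fell by 0.42; 20.6% of all tested genes rose there and 21.1% fell. In WT cells the same 4 co-chaperones fell by 0.83 to 1.03, HSP90AA1, HSP90AB1 and CHORDC1 fell by 0.28 to 0.45, and ST13 rose by 0.55; 24.8% of all genes rose there and 26.0% fell. After recovery 7 of the 10 transcripts were higher in KO than in WT cells, with log2 differences of 0.38 to 1.44, and FKBP5 and ST13 were lower; of all genes 31.8% were higher and 31.3% lower. A gene was said to rise, fall or differ where edgeR's quasi-likelihood test gave a Benjamini-Hochberg adjusted p under 0.05 over all 17471 genes, as for every adjusted p given here. Levels are counts-per-million values (CPM), scaled between libraries by TMM, the trimmed mean of M-values. The calls were recomputed with other scalings, with offsets per library for transcript length or for GC content and length, with each library left out, and against a minimum fold change of 1.5.

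The libraries held 24531569 and 27187797 counts in KO recovery, 26102649 and 34387618 in KO heat shock, 15507896 and 15654696 in WT recovery, and 20248480 and 19979779 in WT heat shock. FBXW7 itself had 13.8 to 17.4 CPM in the KO libraries and 21.7 to 33.5 CPM in the WT libraries, with log2 differences of -0.68 ± 0.11 at recovery (adjusted p = 8.0e-05) and -1.01 ± 0.10 at heat shock (adjusted p = 1.9e-06); counts summed over a gene do not show which part was removed. Of 10 epithelial and colon markers, 8 reached 10 counts in a library, and the list summed to 1983 to 2233 CPM in KO and 2417 to 2762 CPM in WT libraries. Of 6 fibroblast markers 1 did so, with sums of 6.78 to 8.13 CPM in KO and 7.16 to 10.4 CPM in WT, and LUM was at 0. Of 6 immune and blood markers none did, with sums of at most 0.571 CPM and CD3E at 0. Replicates were least alike in WT heat shock, where the chi-square of their counts over genes was 19 per degree of freedom, against 2.43 to 8.23 in the other groups. In bulk RNA a change in the share of cells that express a gene and a change in RNA per cell cannot be told apart.

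HSF1 binds arrays of the unit GAA and its reverse complement TTC, called heat shock elements. Windows of 250 bases before to 50 bases after each RefSeq start (GRCh38.p14) were searched on both strands for the 3-unit letters GAANNTTCNNGAA or TTCNNGAANNTTC and for the 2-unit letters GAANNTTC or TTCNNGAA, which overlap the longer ones. Of the 10 genes 8 had a window, and FKBP4 and ST13 did not. The 3-unit letters were found for HSP90AA1, HSP90AB1 and CHORDC1, against 0.608% of 27305 genes with a window, and the 2-unit letters also for STIP1, against 16.2% of genes. Matched stretches are shown because the 3-unit letters separate the 2 HSP90 genes and CHORDC1 from the other members searched. For CHORDC1 only the stretch with 3-unit letters is shown. Capitals mark the matched letters.
HSP90AA1: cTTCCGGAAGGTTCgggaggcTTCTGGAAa
HSP90AB1: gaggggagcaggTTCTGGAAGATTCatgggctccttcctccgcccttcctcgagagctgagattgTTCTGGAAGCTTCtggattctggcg
CHORDC1: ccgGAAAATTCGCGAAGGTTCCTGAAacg
STIP1: cttctagtaggTTCCAGAAggcggcgcgtg
The HSP90AA1 stretch lies at chr14:102087104-102087133 on the minus strand, 89 to 60 bases before its downstream RefSeq start, in an exon of another HSP90AA1 transcript in GENCODE 29. The HSP90AB1 stretch lies at chr6:44247766-44247855 on the plus strand, 177 to 88 bases before the most downstream of 3 starts, in an intron. The CHORDC1 stretch, with 3 overlapping 3-unit matches, lies at chr11:90223084-90223112 on the minus strand, 63 to 35 bases before the start, in an annotated CHORDC1 exon. Further CHORDC1 stretches with 2-unit letters, not shown, lie 216 to 187 and 34 to 5 bases before that start. The STIP1 stretch lies at chr11:64186173-64186202 on the plus strand, after its downstream start and in an exon. No match was found in the windows of AHSA1, CDC37, PTGES3 and FKBP5; a match describes letters and not a bound site.

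Per kilobase of transcript the 2 HSP90 genes stood far above their co-chaperones in all 4 groups. HSP90AA1 was at 1641 ± 61.6 CPM per kb in KO recovery, 1468 ± 60.2 in KO heat shock, 1261 ± 142 in WT recovery and 1528 ± 68.8 in WT heat shock (SD, n = 2 each). HSP90AB1 was at 1635 ± 25.5 CPM per kb in KO recovery, 1457 ± 57.2 in KO heat shock, 1177 ± 71.7 in WT recovery and 1443 ± 145 in WT heat shock. The ranges of the 2 genes overlapped in every group, so their order per length was not resolved. STIP1 came next in 3 groups, with 440 ± 32.5 CPM per kb in KO recovery, 327 ± 7.09 in KO heat shock and 346 ± 52.1 in WT heat shock, but in WT recovery, at 173 ± 0.675, it stood below PTGES3 at 230 ± 6.75. The lowest place fell to FKBP5 in KO cells, at 30.3 ± 1.01 CPM per kb in KO recovery and 40.6 ± 1.78 in KO heat shock, and to CHORDC1 in WT cells, at 23.1 ± 0.246 in WT recovery and 31.6 ± 4.12 in WT heat shock. Between these ends AHSA1, PTGES3, CDC37 and FKBP4 came above ST13 in every group. Their own order was not resolved in WT heat shock, where the ranges of AHSA1, CDC37 and PTGES3 overlapped, while in KO heat shock no 2 of the 4 overlapped. Together the 10 genes took 1.25% and 1.26% of counts in KO recovery, 1.22% and 1.15% in KO heat shock, 0.949% and 1.07% in WT recovery, and 1.21% and 1.10% in WT heat shock.

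**Figure D1:**
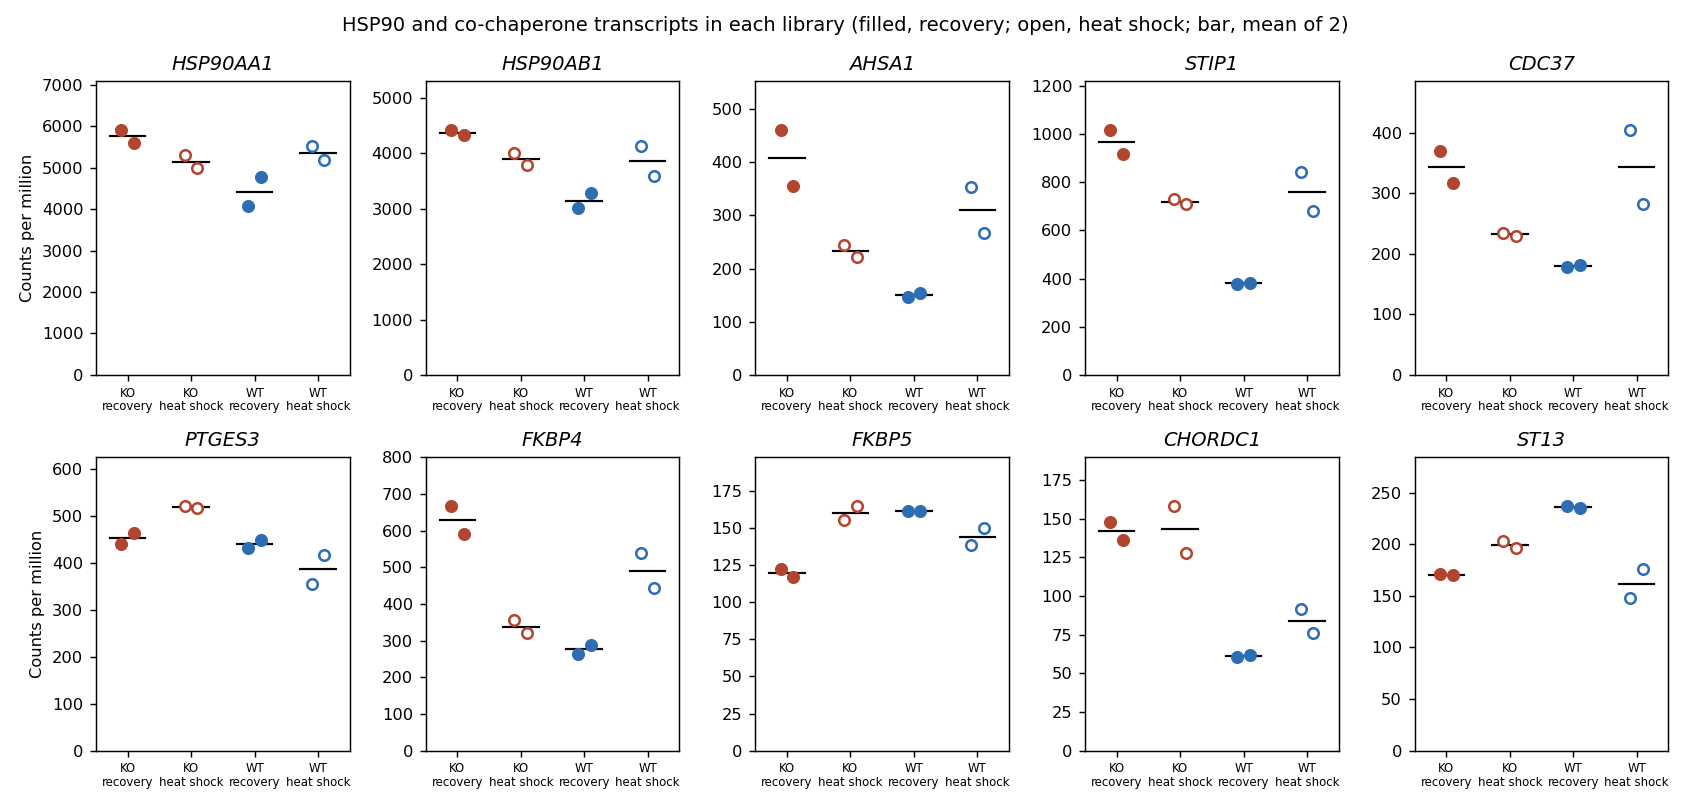
CPM (y axis, linear from 0) of the 10 transcripts in each of the 8 libraries; points are libraries, filled for recovery and open for heat shock, red for KO and blue for WT, and bars are means of 2. AHSA1, STIP1, CDC37 and FKBP4 stand highest in KO recovery or WT heat shock and lowest in WT recovery, while ST13 stands highest in WT recovery.

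With all libraries, TMM scaling and no offsets, the recovery log2 changes of the chaperone genes themselves were under 0.3 in size. HSP90AA1 had 5913 and 5608 CPM in KO recovery and 5302 and 5003 CPM in KO heat shock, against 4071 and 4778 CPM in WT recovery and 5533 and 5192 CPM in WT heat shock. Both WT recovery libraries were below all 6 others, and the KO groups did not overlap. The log2 change on recovery was 0.16 ± 0.11 in KO (SE; adjusted p = 0.25) and -0.28 ± 0.11 in WT cells (adjusted p = 0.0377), by edgeR. With GC and length offsets the KO change was 0.31 and passed (adjusted p = 0.0105), and the WT change was -0.36 (adjusted p = 0.00217). Without replicate 1 of WT recovery the WT change was -0.14 (adjusted p = 0.441), and without replicate 1 of WT heat shock -0.15 (adjusted p = 0.402), while without replicate 2 of WT recovery or of WT heat shock it was -0.43 and -0.44. The call was also lost with upper-quartile scaling (-0.19, adjusted p = 0.147), with length offsets (-0.23, adjusted p = 0.0532), with scaling on coding genes (-0.24, adjusted p = 0.0683), and without any of 3 KO libraries (KO recovery replicate 2 and either KO heat shock replicate), at -0.28 to -0.29 and adjusted p = 0.0573 to 0.0759.

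HSP90AB1 followed HSP90AA1 closely. It had 4421 and 4325 CPM in KO recovery and 4004 and 3788 CPM in KO heat shock, against 3012 and 3283 CPM in WT recovery and 4133 and 3586 CPM in WT heat shock. WT recovery was again below every other library. Its log2 change was 0.17 ± 0.11 in KO (adjusted p = 0.231) and -0.29 ± 0.11 in WT cells (adjusted p = 0.0311). Without replicate 1 of WT recovery the WT change was -0.15 (adjusted p = 0.406), and without replicate 1 of WT heat shock -0.16 (adjusted p = 0.37); without replicate 2 of either it was -0.45. Upper-quartile scaling (-0.20, adjusted p = 0.126), length offsets (-0.21, adjusted p = 0.0849), scaling on coding genes (-0.25, adjusted p = 0.0573) and leaving out KO heat shock replicate 1 or 2 (-0.29 each, adjusted p = 0.0639 and 0.0648) also ended that call.

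The ratio of HSP90AA1 to HSP90AB1 counts, which does not depend on library scaling, was 1.34 and 1.30 in KO recovery, 1.32 and 1.32 in KO heat shock, 1.35 and 1.46 in WT recovery, and 1.34 and 1.45 in WT heat shock. In WT cells replicate 2 was higher than replicate 1 in both conditions, by more than recovery and heat shock differed within a replicate number. Every KO library lay below every WT library, though KO recovery replicate 1 (1.337) and WT heat shock replicate 1 (1.339) were nearly equal. The log2 ratio averaged 0.40 ± 0.0316 in KO recovery and 0.40 ± 0.0026 in KO heat shock, a difference of -0.0061 (SD, n = 2 each; exact two-sided permutation test, p = 1.000). It averaged 0.49 ± 0.0753 in WT recovery and 0.48 ± 0.0798 in WT heat shock, a difference of 0.0105 (exact permutation p = 0.667). Both recovery differences lie within the spread of replicates. KO minus WT, the log2 ratio differed by -0.0908 at recovery and -0.0742 at heat shock (exact permutation p = 0.333 each). With 2 libraries against 2 the smallest p this test can give is 0.333, so it cannot pass 0.05.

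STIP1, the adaptor that joins HSP70 to HSP90, had 1017 and 916 CPM in KO recovery and 730 and 708 CPM in KO heat shock, against 379 and 381 CPM in WT recovery and 841 and 679 CPM in WT heat shock. The recovery and heat shock libraries did not overlap in either line and lay in opposite order. STIP1 rose by 0.43 ± 0.10 in KO cells (adjusted p = 0.00289) and fell by 0.99 ± 0.11 in WT cells (adjusted p = 5.1e-07). The KO rise lost its call without KO recovery replicate 1 (0.40, adjusted p = 0.0995) or KO heat shock replicate 1 (0.37, adjusted p = 0.155), and was 0.27 (adjusted p = 0.0138) with offsets for GC content and length.

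CDC37, which brings kinases to HSP90, had 370 and 316 CPM in KO recovery and 235 and 230 CPM in KO heat shock, against 179 and 182 CPM in WT recovery and 404 and 283 CPM in WT heat shock. The WT heat shock libraries were far apart, yet both were above WT recovery. CDC37 rose by 0.56 ± 0.12 in KO (adjusted p = 7.2e-04) and fell by 0.91 ± 0.12 in WT cells (adjusted p = 4.3e-06). With GC and length offsets the KO change was 0.17 (adjusted p = 0.148) and the WT change -0.58 (adjusted p = 2.7e-05); without KO heat shock replicate 1 the KO change was 0.46 (adjusted p = 0.0836), and with length offsets 0.37 (adjusted p = 0.00985). PDE4A lies on the other strand over 3349 bases of CDC37, and its counts equalled 15.5% to 25.2% of those of CDC37 in KO libraries and 17.2% to 33.6% in WT libraries; the strand setting of the counting is not given, and the part of PDE4A reads in the CDC37 values was not tested.

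AHSA1, the activator of the HSP90 ATPase, had 461 and 356 CPM in KO recovery and 244 and 223 CPM in KO heat shock, against 146 and 154 CPM in WT recovery and 353 and 266 CPM in WT heat shock. The groups did not overlap within either line. AHSA1 rose by 0.80 ± 0.11 in KO cells (adjusted p = 1.9e-05) and fell by 1.03 ± 0.12 in WT cells (adjusted p = 8.9e-07). Within pairs of the same number the WT change was -1.27 and -0.79, and the KO change 0.92 and 0.68.

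FKBP4, an immunophilin that favours steroid receptor activity, had 668 and 591 CPM in KO recovery and 356 and 320 CPM in KO heat shock, against 264 and 288 CPM in WT recovery and 539 and 443 CPM in WT heat shock. KO recovery was above all other libraries, WT recovery below them, and no groups of 1 line overlapped. FKBP4 rose by 0.90 ± 0.11 in KO cells (adjusted p = 2.9e-06) and fell by 0.83 ± 0.11 in WT cells (adjusted p = 5.0e-06). Neither call was lost under any alternative run. RP4-816N1.7, a gene on the other strand over 6803 bases of FKBP4, had 5599 and 5163 counts in KO recovery and 1227 and 1549 in KO heat shock, against 1385 and 1470 in WT recovery and 3237 and 3074 in WT heat shock. That equalled 37.4% and 33.2% of FKBP4 counts in KO recovery, 12.9% and 13.8% in KO heat shock, and 30.3% to 35.6% in WT libraries; without the strand setting, the part of its reads in the FKBP4 values was not tested.

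FKBP5, the immunophilin that restrains the glucocorticoid receptor and is itself a target of that receptor, fell in KO recovery, where FKBP4 rose. It had 122 and 117 CPM in KO recovery and 155 and 165 CPM in KO heat shock, against 161 and 162 CPM in WT recovery and 138 and 150 CPM in WT heat shock. The KO recovery libraries were below all 6 others. FKBP5 fell by 0.42 ± 0.09 in KO cells (adjusted p = 0.00138), and its WT change was 0.16 ± 0.09 (adjusted p = 0.157), or 0.26 (adjusted p = 0.0272) with upper-quartile scaling. The KO fall lost its call with GC and length offsets (-0.20, adjusted p = 0.0504), without KO recovery replicate 2 (-0.34, adjusted p = 0.118) and without KO heat shock replicate 2 (-0.35, adjusted p = 0.117).

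PTGES3, the p23 protein that binds the ATP-bound dimer, had 441 and 465 CPM in KO recovery and 522 and 517 CPM in KO heat shock, against 432 and 450 CPM in WT recovery and 356 and 417 CPM in WT heat shock. Its highest libraries were those of KO heat shock. The log2 change was -0.20 ± 0.10 in KO (adjusted p = 0.114) and 0.19 ± 0.10 in WT cells (adjusted p = 0.108). The WT value passed with upper-quartile scaling (0.29, adjusted p = 0.0187), with length offsets (0.31, adjusted p = 0.009) and without replicate 2 of WT recovery (0.29, adjusted p = 0.049) or WT heat shock (0.28, adjusted p = 0.0496), and the KO value with length offsets (-0.33, adjusted p = 0.00703). With GC and length offsets the changes were 0.0057 in KO and -0.02 in WT, each with the sign turned.

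CHORDC1, an HSP90-binding protein with CHORD domains, was the member whose lines did not overlap in any library. It had 148 and 136 CPM in KO recovery and 158 and 128 CPM in KO heat shock, against 60.7 and 61.6 CPM in WT recovery and 91.5 and 76.0 CPM in WT heat shock. All 4 KO libraries were above all 4 WT libraries, and the KO conditions overlapped. Its change was -0.0047 ± 0.10 in KO (adjusted p = 0.977), with a different sign in the 2 pairs (-0.10 and 0.09), and -0.45 ± 0.10 in WT cells (adjusted p = 0.00123). With GC and length offsets it was 0.34 in KO (adjusted p = 0.00491) and -0.76 in WT (adjusted p = 1.6e-06). Those offsets took the KO minus WT difference at heat shock from 0.77 to 0.24, which did not pass (adjusted p = 0.111). At recovery that difference was 1.21, and 1.35 with the offsets (adjusted p = 2.7e-07).

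ST13, which holds HSP70 in its ADP-bound state, had 171 and 170 CPM in KO recovery and 203 and 196 CPM in KO heat shock, against 237 and 235 CPM in WT recovery and 148 and 176 CPM in WT heat shock. WT recovery was above all other libraries, and the KO groups did not overlap. ST13 rose by 0.55 ± 0.10 in WT cells (adjusted p = 1.4e-04), and its KO change was -0.23 ± 0.10 (adjusted p = 0.0719). The KO value passed without any 1 of the 4 WT libraries (-0.21, adjusted p = 0.0297 to 0.0314), and was 0.06 (adjusted p = 0.573) with GC and length offsets.

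**Figure D2:**
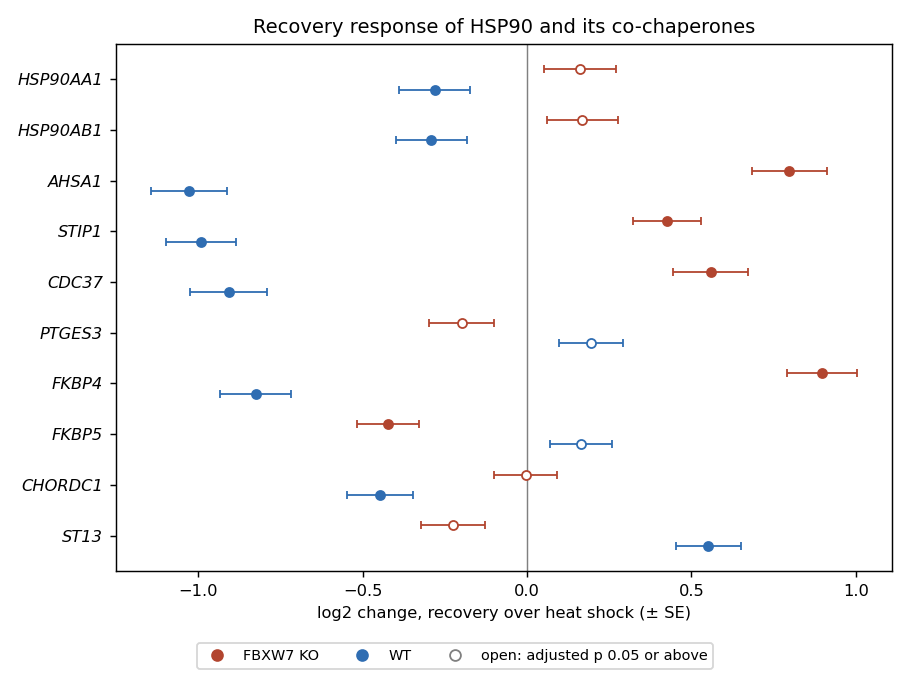
Log2 change of each transcript, recovery over heat shock (x axis, ± SE), KO in red above WT in blue, filled where adjusted p was under 0.05. AHSA1, STIP1, CDC37 and FKBP4 lie at 0.43 to 0.90 in KO and at -0.83 to -1.03 in WT.

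Counted over the set, 4 members rose and 1 fell in KO recovery, and 1 rose and 7 fell in WT recovery. The median log2 change of the 10 was 0.16 in KO, against -0.02 for all tested genes, and -0.37 in WT, against 0.0092 for all. Against a minimum fold change of 1.5, the KO call of FKBP4 and the WT calls of AHSA1, STIP1, CDC37 and FKBP4 passed and no other. Without KO heat shock replicate 1, the KO rises numbered 2.

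The difference of the responses, KO minus WT, passed for all 10 members: it was positive for 7, where 28.5% of all genes were, and negative for 3, where 27.8% were. AHSA1 had a difference of 1.83 ± 0.16 (adjusted p = 3.9e-08), FKBP4 one of 1.72 ± 0.15 (adjusted p = 3.9e-08; with GC and length offsets it was 1.55 and above that of AHSA1), CDC37 with 1.47 ± 0.16 (adjusted p = 5.7e-07) and STIP1 with 1.42 ± 0.15 (adjusted p = 2.6e-07). These 4 passed under every alternative run, the minimum fold of 1.5 included, though CDC37 was at 0.75 with GC and length offsets, and no other member passed that minimum. HSP90AA1 (0.44 ± 0.15, adjusted p = 0.0196), HSP90AB1 (0.46 ± 0.15, adjusted p = 0.0157) and CHORDC1 (0.44 ± 0.14, adjusted p = 0.0116) were smaller. On the negative side stood ST13 (-0.78 ± 0.14, adjusted p = 1.1e-04), FKBP5 (-0.59 ± 0.13, adjusted p = 0.001) and PTGES3 (-0.39 ± 0.14, adjusted p = 0.0216). Upper-quartile scaling ended the calls of HSP90AA1 (0.34, adjusted p = 0.0616) and HSP90AB1 (0.35, adjusted p = 0.0502). GC and length offsets ended those of FKBP5 (-0.24, adjusted p = 0.0767) and PTGES3 (0.02, adjusted p = 0.871), and gave 1.10 for CHORDC1, 0.66 for HSP90AA1 and -0.31 for ST13, which still passed. Without filtering, PTGES3 was at -0.32 (adjusted p = 0.0582), and with length offsets at -0.64 (adjusted p = 3.3e-04). Without KO recovery replicate 2 or KO heat shock replicate 2, HSP90AA1 (0.45 and 0.44), HSP90AB1 (0.44 and 0.43), PTGES3 (-0.43 and -0.44) and CHORDC1 (0.35 and 0.34) did not pass (adjusted p = 0.0861 to 0.155). Without KO heat shock replicate 1, HSP90AA1 (0.45), HSP90AB1 (0.48) and PTGES3 (-0.35) did not (adjusted p = 0.0822 to 0.184). Without replicate 1 of WT recovery or WT heat shock, HSP90AA1 (0.32 and 0.33), HSP90AB1 (0.33 and 0.34) and PTGES3 (-0.27 and -0.26) did not (adjusted p = 0.068 to 0.139). Without KO recovery replicate 1, HSP90AA1 (0.48, adjusted p = 0.0632) and PTGES3 (-0.32, adjusted p = 0.225) did not. AHSA1, STIP1, CDC37, FKBP4, FKBP5 and ST13 passed whichever 1 library was left out.

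At the end of heat shock, before any recovery, the lines differed less. PTGES3, CHORDC1 and ST13 were higher in KO cells, with log2 differences of 0.43 ± 0.09, 0.77 ± 0.11 and 0.30 ± 0.09, where 27.4% of all genes were higher, and AHSA1, CDC37 and FKBP4 were lower, with -0.41 ± 0.13, -0.57 ± 0.13 and -0.54 ± 0.10, where 28.2% were lower. The differences of HSP90AA1 (-0.06 ± 0.09, adjusted p = 0.607), HSP90AB1 (0.01 ± 0.09, adjusted p = 0.908), STIP1 (-0.08 ± 0.10, adjusted p = 0.514) and FKBP5 (0.15 ± 0.08, adjusted p = 0.126) did not pass. No member passed against a minimum fold of 1.5, where 1278 of the 17471 genes were higher and 1600 lower. With GC and length offsets only FKBP4 (-0.49, adjusted p = 1.7e-04) kept its call, HSP90AA1 passed at -0.23 (adjusted p = 0.0207), and ST13 changed sign (-0.06, adjusted p = 0.452). AHSA1 (-0.23, adjusted p = 0.0912) and ST13 (0.14, adjusted p = 0.124) lost their calls without WT heat shock replicate 1, which also took CDC37 to -0.33 and PTGES3 to 0.28. AHSA1 was also lost without KO heat shock replicate 2 (-0.35, adjusted p = 0.108) and with length offsets (-0.23, adjusted p = 0.136), and ST13 without KO heat shock replicate 1 (0.28, adjusted p = 0.0741). Without WT heat shock replicate 2, STIP1 (-0.24, adjusted p = 0.0122) and FKBP5 (0.20, adjusted p = 0.0376) passed.

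After recovery 7 members were higher in KO than in WT cells and 2 were lower. AHSA1 differed by 1.44 ± 0.13 (adjusted p = 4.5e-07), STIP1 by 1.35 ± 0.10 (adjusted p = 5.8e-08), CHORDC1 by 1.21 ± 0.11 (adjusted p = 4.5e-07), FKBP4 by 1.19 ± 0.11 (adjusted p = 3.1e-07) and CDC37 by 0.93 ± 0.13 (adjusted p = 2.6e-05). These 5 also passed against a minimum fold of 1.5. HSP90AA1 differed by 0.38 ± 0.09 (adjusted p = 0.00192) and HSP90AB1 by 0.47 ± 0.09 (adjusted p = 3.0e-04); with upper-quartile scaling they were 0.21 and 0.31, and without WT recovery replicate 1 HSP90AA1 was 0.27 (adjusted p = 0.0527). FKBP5 differed by -0.43 ± 0.08 (adjusted p = 3.2e-04) and ST13 by -0.47 ± 0.09 (adjusted p = 3.7e-04). PTGES3 differed by 0.04 ± 0.09 (adjusted p = 0.724). The median over the 10 was 0.70, against -0.01 for all tested genes. Upper-quartile scaling moved the median of all genes in this comparison to -0.18 and the share of higher calls to 38.1%, against 50.4% with the scaling used here; in WT recovery it moved that median to 0.10 and the share to 59.0%, against 48.8%.

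The 2 recovery responses also followed the GC content of transcripts over all coding genes, in opposite directions. Coding genes of 35% to 40% GC had a median log2 change of -0.43 in KO and 0.34 in WT recovery, and those of 60% to 65% GC 0.26 in KO and -0.31 in WT. The KO minus WT difference at heat shock also followed GC content, with medians of 0.51 and -0.39 in these 2 bins. At recovery its medians there were -0.21 and 0.19. CHORDC1 at heat shock, at 0.77, lay within the quartiles of 35% to 40% GC (0.21 to 0.79). Among the members CHORDC1 (38.2%), PTGES3 (40.6%), ST13 (41.6%) and FKBP5 (43.6%) are poor in GC, HSP90AA1 (45.2%) and HSP90AB1 (48.1%) are intermediate, and FKBP4 (51.1%), AHSA1 (51.7%), STIP1 (52.8%) and CDC37 (60.0%) are richer. PTGES3, FKBP5 and ST13 in KO cells and PTGES3 and FKBP5 in WT cells lay within the quartiles of coding genes of 40% to 45% GC, which ran from -0.46 to -0.03 in KO and from -0.12 to 0.45 in WT. ST13 in WT, at 0.55, lay above them. HSP90AA1 and HSP90AB1 lay within the quartiles of coding genes of 45% to 50% GC in both lines. Those quartiles ran from -0.287 to 0.173 in KO and from -0.332 to 0.292 in WT. FKBP4, AHSA1 and STIP1 lay beyond the quartiles of coding genes of 50% to 55% GC, which ran from -0.13 to 0.35 in KO and from -0.51 to 0.10 in WT. With offsets for GC content and length the changes of these 3 genes were 0.27 to 0.87 in KO and -0.68 to -0.86 in WT, and all passed. CDC37 also lay beyond the quartiles of its bin of 55% to 60% GC, which ended at 0.48 in KO and began at -0.60 in WT, and its KO call was the one of these 4 genes that the offsets ended. CHORDC1 lay above the quartiles of 35% to 40% GC in KO, which ended at -0.22, and below them in WT, where they began at 0.07.

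**Figure D3:**
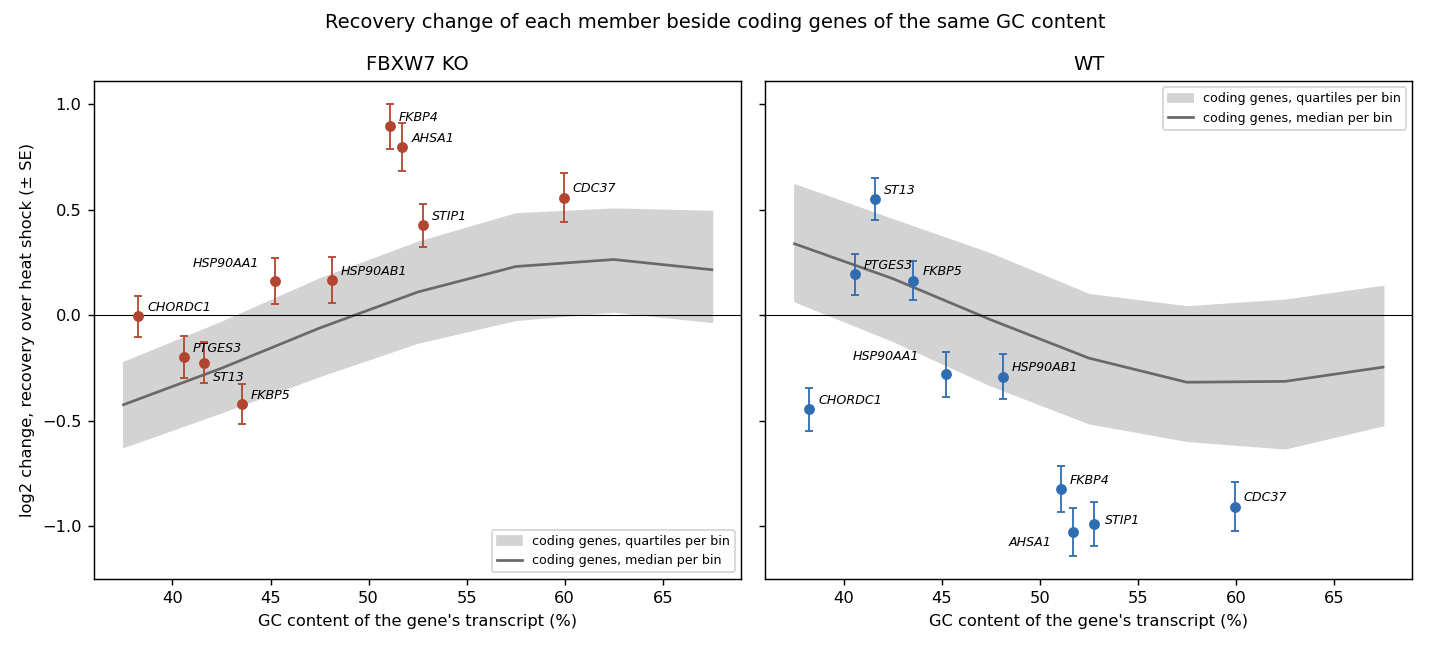
Log2 change, recovery over heat shock (y axis, members with SE) against the GC content of the gene's transcript (x axis, %), for KO on the left and WT on the right; the grey line and band are the median and quartiles of coding genes in bins of 5%. FKBP4, AHSA1, STIP1 and CDC37 lie above the band in KO and below it in WT, and so does CHORDC1, at 38.2% GC.

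Relative to HSP90 in the same library the co-chaperones also differed between groups. Per 1000 counts of HSP90AA1 and HSP90AB1 together, FKBP4 had 64.6 and 59.5 counts in KO recovery and 38.3 and 36.4 in KO heat shock, against 37.3 and 35.7 in WT recovery and 55.8 and 50.5 in WT heat shock. FKBP5 had 11.8 and 11.8 in KO recovery and 16.7 and 18.8 in KO heat shock, against 22.8 and 20.1 in WT recovery and 14.3 and 17.1 in WT heat shock. These 2 immunophilins, which compete for HSP90 in steroid receptor complexes, stood at opposite ends in KO recovery, where FKBP4 was highest and FKBP5 lowest of the 4 groups. These ratios are of raw counts, with no offset for GC content. With GC and length offsets the KO recovery change was 0.87 for FKBP4, while that of FKBP5 was -0.20 and did not pass (adjusted p = 0.0504). The part of opposite-strand reads in the FKBP4 counts was not tested. CHORDC1 had 14.3 and 13.7 in KO recovery and 17.0 and 14.5 in KO heat shock, against 8.57 and 7.65 in WT recovery and 9.46 and 8.66 in WT heat shock. HSP90AA1 and HSP90AB1 made up 75.3% and 76.4% of the members' counts in KO recovery, 78.1% and 78.0% in KO heat shock, 79.2% and 80.8% in WT recovery, and 77.1% and 77.9% in WT heat shock.

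Over the 8 libraries the levels of the members fell into sets, given here as a description since all pairs share the same 4 groups. AHSA1 and FKBP4 had Pearson r = 0.974 on log2 CPM, HSP90AA1 and HSP90AB1 0.953, and HSP90AB1 and STIP1 0.964. FKBP5 ran against FKBP4 (r = -0.922), and ST13 against CDC37 (r = -0.973). PTGES3 was close to none of the others, with r from -0.483 to 0.496. Among 10545 other coding genes with a mean count of at least 100, the 5 most like HSP90AA1 were CARS2 (r = 0.988), LY6G5B, KHDRBS3, ARHGEF10 and the co-chaperone TOMM34 (r = 0.962). Those most like HSP90AB1 were DNMT1 (r = 0.995), PRAME, ZBTB48, ZBTB40 and HMGXB3 (r = 0.985), and those most like FKBP5 were CLMN (r = 0.981), RCOR3, EHHADH, TMEM245 and SLC16A14 (r = 0.978).

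Of 30 other HSP90 co-chaperone genes 29 were tested. In KO recovery 12 rose, 6 fell and 11 did not pass, where 20.6% of all genes rose and 21.1% fell. In WT recovery 5 rose, 19 fell and 5 did not pass, where 24.8% rose and 26.0% fell. The medians were 0.15 in KO and -0.39 in WT, beside the all-gene medians of -0.02 and 0.0092. RUVBL2, an ATPase of the R2TP complex that works with HSP90, rose by 0.61 ± 0.11 in KO (adjusted p = 1.9e-04) and fell by 0.92 ± 0.11 in WT (adjusted p = 2.0e-06). SGTA, a TPR protein that binds HSP70 and HSP90, fell by 0.93 ± 0.10 in WT (adjusted p = 3.7e-07), and the ubiquitin ligase STUB1 by 0.88 ± 0.11 (adjusted p = 2.8e-06). RPAP3, the R2TP subunit that docks on HSP90, went the other way, falling by 0.76 ± 0.10 in KO (adjusted p = 5.5e-06). The difference of the responses passed for 19 of the 29, 15 of them positive, with 1.54 ± 0.16 for RUVBL2 and -1.47 ± 0.14 for RPAP3. The KO calls were fewer with single libraries left out. Without KO heat shock replicate 1, 2 rose and 2 fell, and RUVBL2 gave 0.48 (adjusted p = 0.0588). Without KO recovery replicate 1, 3 rose and 2 fell, and without KO recovery replicate 2 or KO heat shock replicate 2, 4 rose and 2 fell. DESeq2 gave 7 that rose and 4 that fell in KO, and GC and length offsets 7 and 5.

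HSP70 chaperones, from which HSP90 receives clients, and co-factors of HSP70, here together called HSP70 partners, moved in the directions of AHSA1 and FKBP4. Of 8 tested, 7 rose in KO recovery, where 20.6% of all genes rose, and 8 fell in WT recovery, where 26.0% fell. The medians were 0.54 in KO and -1.60 in WT. DNAJB1, an HSP40, averaged 520 CPM in KO recovery and 328 CPM in KO heat shock, against 112 CPM in WT recovery and 425 CPM in WT heat shock. The constitutive HSP70 gene HSPA8 averaged 4013 CPM in KO recovery and 3023 CPM in KO heat shock, against 1764 CPM in WT recovery and 4906 CPM in WT heat shock. DESeq2 ended the KO call of HSPA8 (0.40, adjusted p = 0.368). Against a minimum fold of 1.5 the KO calls of DNAJA1, HSPA8, HSPH1, DNAJB1 and BAG3 were lost, and in WT that of HSPA4. Without KO heat shock replicate 1, 4 of the 8 rose in KO, and without any other KO library 5 did. The inducible HSPA1B changed most in WT, by -2.81 ± 0.12 (adjusted p = 1.2e-11), but its near-identical copy HSPA1A was counted at under 4 CPM, so how reads were divided between the copies is uncertain.

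**Figure D4:**
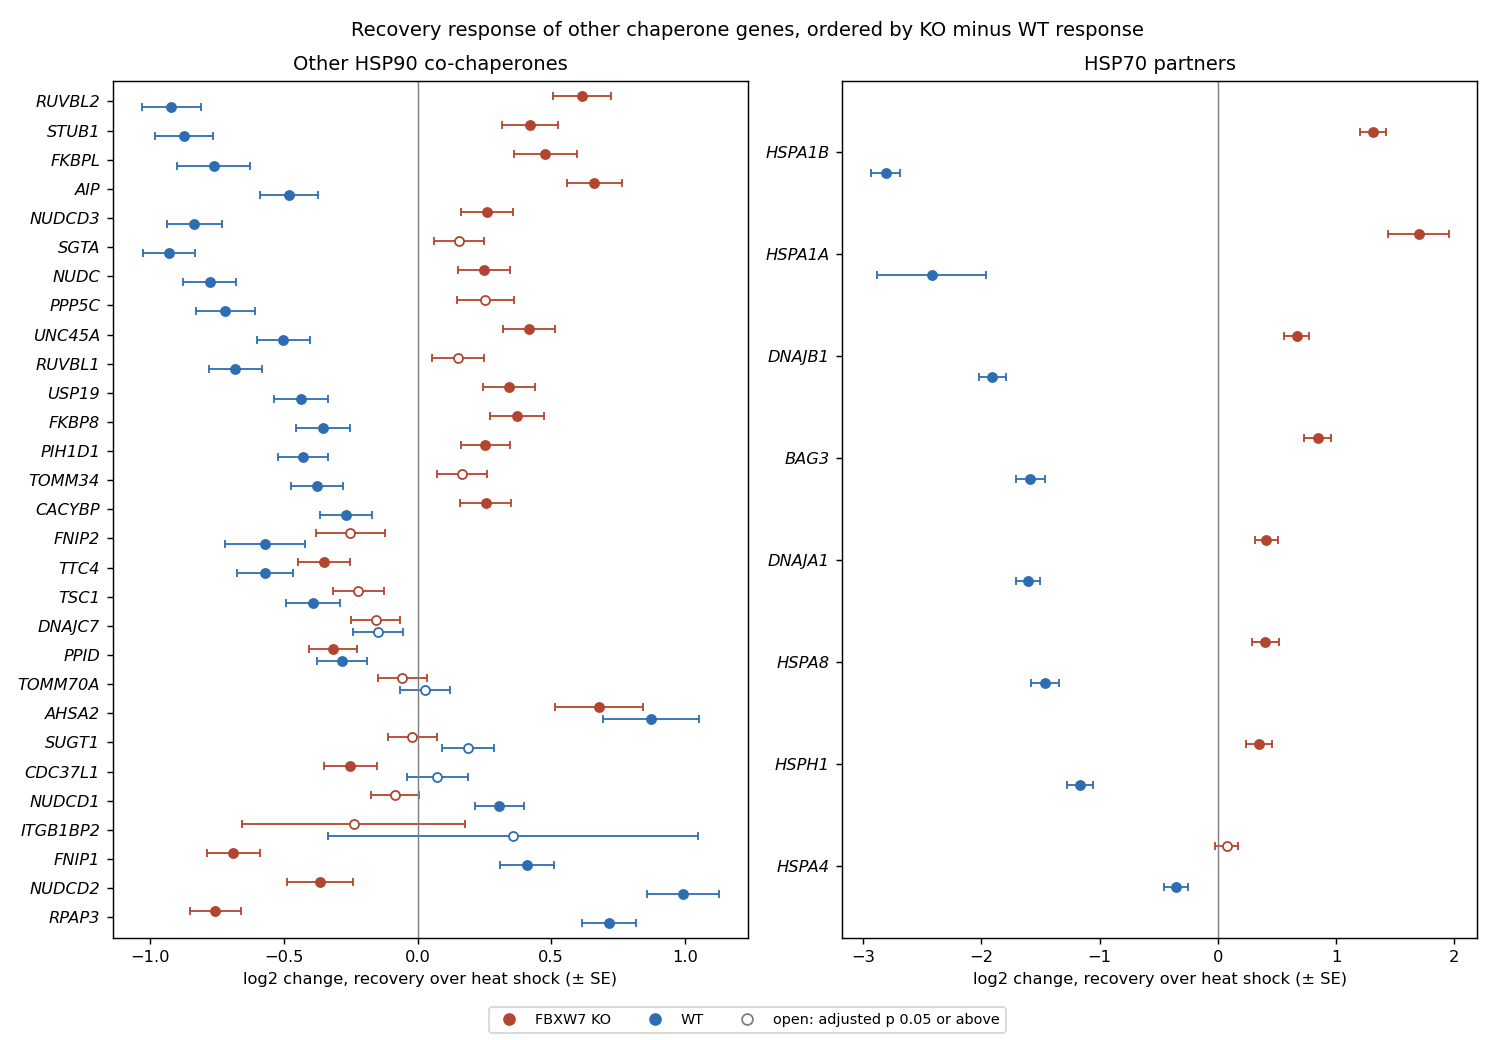
Log2 change, recovery over heat shock (x axis, ± SE) of the 29 tested other co-chaperones on the left and 8 HSP70 partners on the right, KO in red above WT in blue, filled where adjusted p was under 0.05, ordered by the KO minus WT response. RUVBL2 is at 0.61 in KO and -0.92 in WT, and RPAP3 at -0.76 in KO and 0.72 in WT.

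The HSP90 paralogues of other compartments did not share 1 pattern. HSP90B1, the form of the endoplasmic reticulum, averaged 1721 CPM in KO recovery and 1811 CPM in KO heat shock, against 1772 CPM in WT recovery and 1434 CPM in WT heat shock, and rose by 0.30 ± 0.10 in WT (adjusted p = 0.0184). TRAP1, the mitochondrial form, averaged 408 CPM in KO recovery and 313 CPM in KO heat shock, against 336 CPM in WT recovery and 447 CPM in WT heat shock; it rose by 0.38 ± 0.10 in KO (adjusted p = 0.00578) and fell by 0.41 ± 0.10 in WT (adjusted p = 0.00271). GC and length offsets ended all 3 calls (adjusted p = 0.146 to 0.262). Leaving out replicate 2 of WT recovery or WT heat shock ended that of HSP90B1 (0.22, adjusted p = 0.167 and 0.162), and leaving out KO recovery replicate 1 or KO heat shock replicate 1 ended the KO call of TRAP1 (0.24 and 0.22, adjusted p = 0.366 and 0.421). HSF1 averaged 77.5 CPM in KO recovery and 63.3 CPM in KO heat shock, against 79.9 CPM in WT recovery and 107 CPM in WT heat shock; its recovery changes were 0.29 ± 0.10 in KO (adjusted p = 0.0197) and -0.41 ± 0.10 in WT (adjusted p = 0.00169), and -0.02 and -0.12 with GC and length offsets, neither of which passed. The KO call of HSF1 was also lost without replicate 1 of KO recovery or KO heat shock (0.22 and 0.20, adjusted p = 0.377 and 0.433), and without replicate 2 of either, where the change was larger (0.39 and 0.38, adjusted p = 0.0688 and 0.0734).

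Transcripts of 24 HSP90 client proteins, of which 22 were tested, showed no common direction in KO recovery, and more fell than rose in WT recovery. In KO recovery 5 rose and 5 fell, where 20.6% and 21.1% of all genes did. In WT recovery 6 rose and 11 fell, where 24.8% and 26.0% of all genes did. The medians were -0.10 in KO and -0.31 in WT, beside the all-gene medians of -0.02 and 0.0092. GC and length offsets ended 6 of the 10 KO calls, HSF1 and PLK1 among them, and 7 of the 17 WT calls, HSF1 among them. CDK4, a kinase that needs CDC37, rose by 0.95 ± 0.10 in KO (adjusted p = 4.5e-07), and PLK1, a mitotic kinase, fell by 1.32 ± 0.11 in WT (adjusted p = 3.0e-08). Without KO recovery replicate 1 or KO heat shock replicate 1, 2 clients rose and 1 fell in KO, and without replicate 2 of either, 3 rose and 1 fell. Since FKBP5 is a target of the glucocorticoid receptor, 9 other tested targets were set beside it. In KO recovery 3 rose and 3 fell, beside 20.6% and 21.1% of all genes, and with any 1 KO library left out 2 rose and at most 1 fell. In WT recovery 4 rose and 1 fell, beside 24.8% and 26.0% of all genes. The difference of the responses was negative for 4, beside 27.8% of all genes, and positive for none (1 without replicate 2 of WT recovery or of WT heat shock). KLF9 rose by 2.60 ± 0.13 in WT (adjusted p = 6.4e-11) and PER1 by 1.36 ± 0.10 (adjusted p = 6.0e-09). Their KO minus WT differences were -2.23 ± 0.21 and -0.84 ± 0.14. FKBP5 shared only the sign of that difference, as its WT change of 0.16 did not pass (adjusted p = 0.157) and it fell in KO. With GC and length offsets the FKBP5 difference was -0.24 and did not pass (adjusted p = 0.0767).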

How the data were processed

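RNA from HCT116 cells was sequenced as strand-specific 50-base reads, per the labels' protocols, after poly-A selection or ribosomal depletion, without saying which for which library. CASAVA, TopHat and hg19 appear in the submitters' processing notes, and neither a counter nor a strand setting for it is given there. The authors deposited 4 tables, one for each cell line and replicate, with raw read counts per gene at recovery and at heat shock, where NA was read as 0. Beside the counts the authors deposited a log2 fold change, a score and p-values and q-values for each pair, per the file headers; only the log2 values were used, for their sign: which count column is recovery rests on it and on the order of the comparison's name.

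Counts were filtered with filterByExpr, scaled by TMM and tested with edgeR 4.0.16 in R 4.3.3 over all 8 libraries. The recovery comparisons had the matched pair of recovery and heat shock as a block, as the study's design text pairs them; the comparisons of KO with WT had none. Deviations of same-numbered libraries did not go together (r from -0.0436 to 0.0245). On simulated counts with 200 changed genes the fit of WT recovery against heat shock recovered 92.54% of 1.5-fold changes, and 5.8% of its calls were false. The simulation gave all genes the same spread between replicates and no pair effect, and changed far fewer genes than were called here. Its rates need not hold for these data. KO recovery was not simulated separately. Alternatives were DESeq2 1.42.0, RLE and upper-quartile scaling, TMM on coding genes, no filter, a minimum fold of 1.5, length offsets, GC and length offsets (95.43% of tested genes had both values), each library left out, and the block removed or added. CPM per kb used transcript lengths of GENCODE 29, matched by gene ID for 48932 of 55075 genes. Total counts of 15507896 to 34387618 per library set the depth, and reads carry no molecular identifiers. The members and gene lists were chosen with earlier results of these data known. Up to 5 genes of each list were named, those of lowest p in a comparison, with the paralogues and HSF1 named whatever their values.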

Additional observations from a re-analysis of the deposited data

Results flagged for a closer look

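In the main run (TMM scaling, no offsets, all libraries) the response to recovery differed between KO and WT cells for each of the 10 genes. That is by the test of the difference itself (edgeR, adjusted p under 0.05). The KO minus WT log2 response was 1.83 for AHSA1, 1.72 for FKBP4, 1.47 for CDC37 and 1.42 for STIP1. It was 0.46 for HSP90AB1, 0.44 for HSP90AA1 and 0.44 for CHORDC1, and -0.39 for PTGES3, -0.59 for FKBP5 and -0.78 for ST13. Of all tested genes 28.5% differed upward and 27.8% downward in this test. Only AHSA1, FKBP4, CDC37 and STIP1 passed against a minimum fold of 1.5, where 2540 of the 17471 genes differed upward and 2449 downward. GC and length offsets ended the calls of PTGES3 (0.02, adjusted p = 0.871) and FKBP5 (-0.24, adjusted p = 0.0767). Upper-quartile scaling ended those of HSP90AA1 (adjusted p = 0.0616) and HSP90AB1 (adjusted p = 0.0502).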

How the results depend on the processing

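RLE scaling, DESeq2 and the removed or added replicate block changed no call of the 10 members; among the other lists DESeq2 did, for example for HSPA8 in KO recovery (adjusted p = 0.368). Without the replicate block 8 members passed in WT recovery (7 lower, 1 higher), 5 in KO recovery and 10 in the difference of responses; with it 6 passed for KO against WT at heat shock and 9 at recovery. Upper-quartile scaling gave 3 higher in WT recovery, where 5303 of all 17471 genes were higher. Length offsets gave 2 higher in WT and 2 lower in KO recovery, where 4775 of all genes were higher and 3736 lower. Against a minimum fold of 1.5, 4 passed in WT recovery (0 higher, 4 lower), 1 in KO recovery (1 higher, 0 lower), 4 in the difference (4 higher, 0 lower), 0 at heat shock (0 higher, 0 lower) and 5 at recovery (0 lower). Of all 17471 genes, 1345 were then higher and 916 lower in WT recovery, and 725 higher and 280 lower in KO recovery. In the difference 2540 were higher and 2449 lower. For KO against WT, 1278 were higher and 1600 lower at heat shock, and 2014 higher and 2738 lower at recovery. GC and length offsets gave 0 lower in KO recovery, 1 lower in the difference and 2 at heat shock (0 higher). Of all genes 3172 were then lower in KO recovery and 4500 in the difference, and at heat shock 4664 were higher and 4391 lower.

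With 1 library left out, 1 to 2 were higher in WT recovery; in KO recovery 3 to 6 passed (2 to 4 higher, 0 to 2 lower) and in the difference 6 to 10 (4 to 7 higher). The log2 ratio of HSP90AA1 to HSP90AB1 counts then changed by -0.046 to 0.0669 in WT and -0.0285 to 0.0163 in KO recovery. CHORDC1 in KO recovery ranged from -0.1038 to 0.1164, and at heat shock HSP90AB1 from -0.0988 to 0.0776 and STIP1 from -0.2396 to 0.0406.

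Signs turned with GC and length offsets for PTGES3 in WT recovery (-0.0190), for PTGES3 (0.0057), CHORDC1 (0.3396) and ST13 (0.0611) in KO recovery, for PTGES3 in the difference (0.0247), and at heat shock for HSP90AB1 (-0.0293), STIP1 (0.0507), FKBP5 (-0.1100) and ST13 (-0.0613). CHORDC1 in KO recovery turned without a filter (0.0205) and with scaling on coding genes (0.0052), as did HSP90AB1 at heat shock (-0.0077) and PTGES3 at recovery (-0.0161) with that scaling. Upper-quartile scaling gave -0.0463 for HSP90AB1 at heat shock and -0.1276 for PTGES3 at recovery, and length offsets -0.1172 for PTGES3 at recovery. The cause was not tested. Each group had 2 libraries, and the member counts were far above the filter on low counts. Whether replicate spread or depth limits these values was not tested.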

Other observations

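Loci that are near copies of the members were counted in small numbers, and some of those of HSP90 did not follow the genes they resemble; the copies given here were chosen after their values were seen. HSP90AB3P, a copy of HSP90AB1, had 25 and 27 counts in KO recovery and 63 and 107 in KO heat shock, against 284 and 331 in WT recovery and 29 and 28 in WT heat shock. HSP90AB2P, another copy of HSP90AB1, had 20 and 21 counts in KO recovery and 57 and 51 in KO heat shock, against 106 and 128 in WT recovery and 12 and 11 in WT heat shock. For both, the WT recovery libraries were the highest of the 8, where HSP90AB1 itself was lowest. The log2 change of HSP90AB3P was 3.65 ± 0.20 in WT recovery (edgeR, adjusted p = 1.3e-10) and -1.34 ± 0.24 in KO recovery (adjusted p = 1.9e-04), and the WT value stayed between 3.54 and 3.76 under every alternative run. HSP90AA4P, a copy of HSP90AA1, had 8 and 4 counts in KO recovery and 5 and 14 in KO heat shock, against 40 and 61 in WT recovery and 7 and 7 in WT heat shock. ST13P5, a copy of ST13, had 1 and 0 counts in KO recovery and 4 and 10 in KO heat shock, against 54 and 39 in WT recovery and 1 and 4 in WT heat shock. Not every copy was highest there. HSP90AA6P had 0 and 2 counts in KO recovery and 17 and 49 in KO heat shock, against 11 and 19 in WT recovery and 2 and 1 in WT heat shock. ST13P12 had 6 and 4 counts in KO recovery and 0 and 5 in KO heat shock, against 1 and 1 in WT recovery and 4 and 7 in WT heat shock. Several copies passed the filter on low counts through WT recovery alone, so their number is not read as a result. The copies' counts were at most 0.829% of those of HSP90AB1, 0.101% of HSP90AA1 and 4.04% of ST13 in any library. With 50-base reads the split between a gene and its near copies is uncertain, and its part in these values was not tested.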
